A study of Mus musculus with 32 samples.

Results

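Notch pathway genes were followed over the first 6 days of mouse retinal organoid formation. They were 3 receptors (Notch1, Notch2 and Notch3), 3 ligands (Dll1, Dll3 and Jag1) and 4 transcription factors of the Hes and Hey family (Hes1, Hes5, Hes6 and Hey1). These 10 genes were taken by symbol from the 55492 rows of the deposited expression table, and all 10 passed the filter on low values (at least 1 FPKM in at least 2 of 32 libraries). FPKM is a fragment count scaled to transcript length and to the mapped fragments of the library. All cultures derived from Rx:GFP mouse embryonic stem cells, a line named for a fluorescent reporter of the eye field gene Rx. WT is that line as such. In KO, Mettl3 was knocked out, the gene for the catalytic subunit of the enzyme that places N6-methyladenosine on RNA. A further culture was the KO line overexpressing wild-type METTL3 joined to a domain called GRBD, grown without dexamethasone (no Dex) or with 10 µM of it (Dex), a synthetic glucocorticoid. The submitters describe the fusion protein as moving from cytosol to nucleus when Dex is added. Stem cells stood for day 0 and organoids were taken at days 2, 4 and 6, with 2 libraries in each of the 16 groups and 32 libraries of polyadenylated RNA in all. Organoids of all 4 cultures were also treated with a compound named only AGN, at 0.1 µM.

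The design limits what the groups can model. A single KO line is named, both fusion groups also lack Mettl3 and overexpress the fusion, and no culture without the fusion received Dex. Dex samples of day 0 are labelled as treated although the protocol lists only 2, 4 and 6 days of treatment. The duplicates had separate rounds of library preparation and sequencing, but separate cultures are not stated, so p-values measure the spread between these libraries, which may be technical. Mettl3 mRNA did not separate KO from WT, at 34.9 to 43.8 FPKM over the 8 libraries labelled KO and 32.5 to 41.2 in WT. It was 45.2 to 71.8 FPKM without Dex and 44.5 to 75.1 with Dex.

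Notch receptors are single-pass membrane proteins that are cut when a ligand on a neighbouring cell binds them. The freed intracellular part joins the DNA-binding protein RBPJ and switches on Hes and Hey genes, whose products repress proneural genes and keep progenitors dividing. In the embryonic neural tube and retina, cells that express a Delta ligand become neurons while Notch activity in their neighbours holds these as progenitors. Hes6 is the exception among the Hes genes, since it is expressed in cells entering differentiation and counteracts Hes1.

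The RefSeq promoter table of GRCm38.p6 held 250 bases upstream of the start for 8 of the 10 genes, in 10 windows, and not for Hes1 and Hey1. Of the 32851 promoter windows of that length in the table, 5.42% held GTGGGAA, the core that RBPJ recognises, on either strand. Among the 8 genes only Hes5 held it, with matches that begin 226 bases before the start on the minus strand and 83 bases before it on the plus strand. CACNAG, the N box bound by Hes proteins, was in 36.7% of all windows and in those of Hes6, Notch1, Notch2 and Notch3. The E box CAGCTG, a form bound by proneural factors, was in 13% of all windows and in those of Hes6, Jag1, Dll3 and Dll1. A further E box, CATCTG, was in 14.4% of all windows and in 0 of the 10. The Hes5 window is shown because Hes5 had the greatest difference between KO and WT of the 10 genes, with GTGGGAA or its reverse complement in capitals. The windows of Hes6 and Dll1 are shown as members without that core, with CAGCTG in capitals. These matches describe letters only and were not tied to the measurements.
Hes5, chr4:154960673-154960922, plus strand: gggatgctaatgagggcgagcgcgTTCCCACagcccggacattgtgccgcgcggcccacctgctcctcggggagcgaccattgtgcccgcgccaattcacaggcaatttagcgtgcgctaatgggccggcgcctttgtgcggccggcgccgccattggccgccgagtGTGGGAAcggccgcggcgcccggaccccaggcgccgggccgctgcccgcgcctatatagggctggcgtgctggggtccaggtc
Hes6, chr1:91414039-91414288, minus strand: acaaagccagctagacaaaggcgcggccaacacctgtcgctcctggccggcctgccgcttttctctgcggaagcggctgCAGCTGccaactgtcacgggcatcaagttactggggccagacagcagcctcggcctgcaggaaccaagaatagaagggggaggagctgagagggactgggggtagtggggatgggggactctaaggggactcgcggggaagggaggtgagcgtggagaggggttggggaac
Dll1, chr17:15376933-15377182, minus strand: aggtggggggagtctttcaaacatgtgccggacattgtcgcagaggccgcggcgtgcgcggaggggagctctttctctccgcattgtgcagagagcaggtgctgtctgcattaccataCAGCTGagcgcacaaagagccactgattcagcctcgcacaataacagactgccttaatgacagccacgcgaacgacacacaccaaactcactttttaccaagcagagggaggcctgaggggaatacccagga

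Estimated depth was 28.8 to 55.6 M (mega) fragments per library, with a median of 37.5 M, so 3 fragments on a 2 kb transcript correspond to 0.027 to 0.052 FPKM, for counting error only. Duplicates correlated at r between 0.9922 and 0.9955 across genes. Their squared differences exceeded those from counting noise in all 16 groups, by a factor of 13 in WT at day 0 and a median factor of 1.89. Summed pluripotency markers (10 genes) were between 2956 and 3376 FPKM in the day 0 libraries and between 42.8 and 140.2 FPKM at day 6. Retina markers (6 genes) summed to 479.8 and 454.7 FPKM in WT at day 6, against 8.92 and 8.49 in KO, 43.0 and 42.5 without Dex and 254 and 257.6 with Dex. The retina label of day 6 organoids was thus met by marker levels in WT, and the sums with Dex lay between those of WT and no Dex. In Dex against WT at day 6, 1 of the 6 retina genes was higher and 5 were lower (limma adjusted p under 0.05). Their median log2 change was -0.86, where 29.2% of all tested genes were higher and 32.2% lower. Six6 was listed at 0.02 FPKM in both KO libraries. The 858 tested genes of chromosome 8 had a median log2 change of -0.178 from day 0 to day 6 in WT, against 0.105 over other genes, and of 0.35 in KO against WT at day 6. None of the 10 genes lies on that chromosome, and its part in the results was not tested.

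In these bulk libraries fewer cells of a type and less RNA per cell cannot be told apart. Averaged over the 32 libraries, Hes6 (56.7 FPKM) and Hes1 (45.6) had the highest levels, followed by Hes5 (21.3), Notch3 (16.7) and Dll1 (10.3). Dll3 (7.97), Notch1 (6.10), Jag1 (4.52), Hey1 (4.27) and Notch2 (3.43) were lower. For 7 of the 10 genes the group with the highest mean was KO at day 6. The exceptions were Hes1 (WT at day 6), Hes6 (KO at day 2) and Hey1 (the fusion without Dex at day 6). When the 16 groups were ordered by level, neighbouring groups had overlapping libraries in 9 of 15 places for Notch1 and in 2 of 15 for Hes6, and in 4 to 6 places for the other genes.

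**Figure D1:**
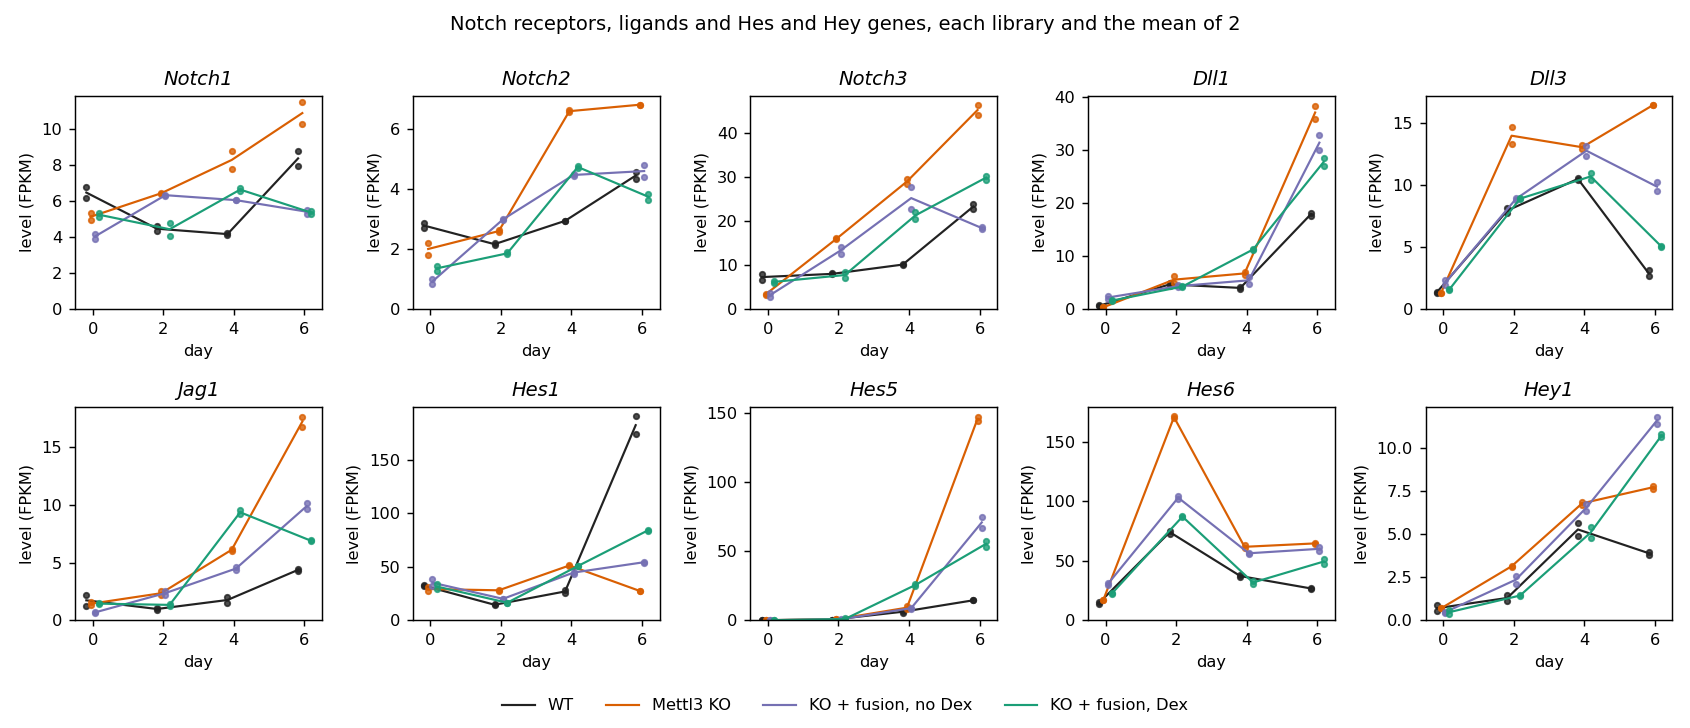
Level of each gene in FPKM (y axes, linear, each from 0) by day (x axes) in WT, KO, the fusion line without Dex and the fusion line with Dex. Points are single libraries and lines join the means of 2. At day 6 Hes1 is highest in WT, Hey1 is highest without Dex, and the other 8 genes are highest in KO.

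Most of these genes rose as the stem cells became organoids. From day 0 to day 6 all 10 rose in WT and without Dex, and 9 of 10 rose in KO and with Dex (limma on log2(FPKM + 1), adjusted p under 0.05). The share that rose among all 16276 tested genes was 43.6% for WT, 45.0% for KO, 48.0% for no Dex and 46.4% for Dex. For the 10 members the median change was 1.26 (log2) in WT and 2.63 in KO, against 0.09 in both over all tested genes. Rescaling the libraries to a common median ratio took 0.116 (WT), 0.103 (KO), 0.191 (no Dex) and 0.145 (Dex) from the median of all genes, and the rise of Notch1 without Dex then missed the threshold (0.12, limma adjusted p = 0.113). The same rescaling moved the share of higher genes among all called without Dex from 58.6% to 48.5%. The cases that did not pass the test were Hes1 in KO (-0.09, limma adjusted p = 0.297) and Notch1 with Dex (0.03, adjusted p = 0.709).

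KO organoids had more mRNA of most of these genes than WT organoids from day 2 on. In KO against WT, 1 member was higher and 4 were lower at day 0, 8 were higher at day 2, all 10 were higher at day 4, and 9 were higher and Hes1 lower at day 6. Over all tested genes the shares were 18.4% higher and 29.8% lower at day 0, 37.5% and 21.3% at day 2, 36.5% and 24.0% at day 4, and 30.9% and 34.2% at day 6. The median change of the members was -0.15, 0.75, 0.78 and 0.97 (log2) over the 4 days, against -0.04, 0.09, 0.06 and -0.03 over all tested genes. After rescaling, the share of higher genes among all called went from 63.8% to 50.6% at day 2 and from 60.3% to 49.7% at day 4. With only the compared groups in the fit, 2 members were called at day 0, and when calls also needed a log2 change of 1 or more, 0, 1, 2 and 6 were called at the 4 days. The change in the difference from day 0 to day 6 was itself tested, and was positive for 9 members and negative for Hes1 (limma interaction), where 31.1% of all tested genes were positive and 25.8% negative.

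Most of these genes were lower in the fusion line without Dex than in KO at day 6. Against KO, 4 members were higher and 3 lower at day 0, 5 were lower at day 2, 4 were lower at day 4, and 2 were higher and 7 lower at day 6. Over all tested genes the shares were 19.3% higher and 29.8% lower at day 0, 14.8% and 22.2% at day 2, 9.66% and 17.0% at day 4, and 21.1% and 27.9% at day 6. Rescaling moved the share of higher genes among all called from 39.4% to 57.3% at day 0 and from 36.3% to 51.9% at day 4. Leaving out the first KO or the first no-Dex library gave 3 at day 2, and leaving out either KO library or the first no-Dex library gave 2 at day 4.

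Members differed between Dex and no Dex in both directions, and whether Dex caused this was not tested. Dex against no Dex gave 4 higher and 3 lower at day 0, 7 lower at day 2, 3 higher (Dll1, Jag1 and Hes5) and 3 lower (Dll3, Hes6 and Hey1) at day 4, and 2 higher (Notch3 and Hes1) and 4 lower (Notch2, Dll3, Jag1 and Hes6) at day 6. Over all tested genes the shares were 27.3% higher and 16.1% lower at day 0, 12.7% and 31.5% at day 2, 18.3% and 21.9% at day 4, and 23.8% and 19.0% at day 6. At day 6 the median change of the members was -0.21, against 0.01 over all tested genes. Rescaling moved the share of higher genes among all called from 62.9% to 48.2% at day 0 and from 28.7% to 50.15% at day 2. The difference changed from day 0 to day 6 for 5 members, upwards for Hes1 and downwards for Notch1, Notch2, Dll3 and Jag1 (limma interaction), against 22.7% upwards and 25.9% downwards over all tested genes.

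Dex organoids were compared with WT as well, which shares the WT libraries with the KO comparison. Here 2 members were higher and 2 lower at day 0, only Hes6 was higher at day 2, 7 were higher and Hes6 lower at day 4, and 7 were higher and 3 (Notch1, Notch2 and Hes1) lower at day 6. Over all tested genes the shares were 19.0% higher and 30.8% lower at day 0, 12.2% and 17.2% at day 2, 25.7% and 19.1% at day 4, and 29.2% and 32.2% at day 6. At day 0 rescaling moved the share of higher genes among all called from 38.2% to 49.2%. Day 2 was the day on which the fewest members differed between Dex and WT, with 2 called after rescaling or without the second Dex library.

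KO against WT and Dex against no Dex use different libraries, so their directions can be set side by side. At day 6, 6 members were called in both, and 5 of them (Notch2, Dll3, Jag1, Hes1 and Hes6) moved in opposite directions while Notch3 moved in the same direction. Over all tested genes 53.4% of the 5393 called in both were opposite at day 6. At day 0, 5 members were called in both, and 4 of them (Notch1, Notch2, Notch3 and Hes6) were opposite, where 92.8% of all such genes were. At day 2 all 7 members called in both were opposite, where 82.3% of all such genes were. After rescaling, 4 of these 7 (Notch1, Notch3, Jag1 and Hey1) were still called in both, and all 4 were opposite. At day 4, Dll1, Jag1 and Hes5 were higher in both comparisons and Dll3, Hes6 and Hey1 were opposite, where 84.3% of all such genes were opposite. Rescaling removed Hes5 from those higher in both at day 4 and added Hes1.

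**Figure D2:**
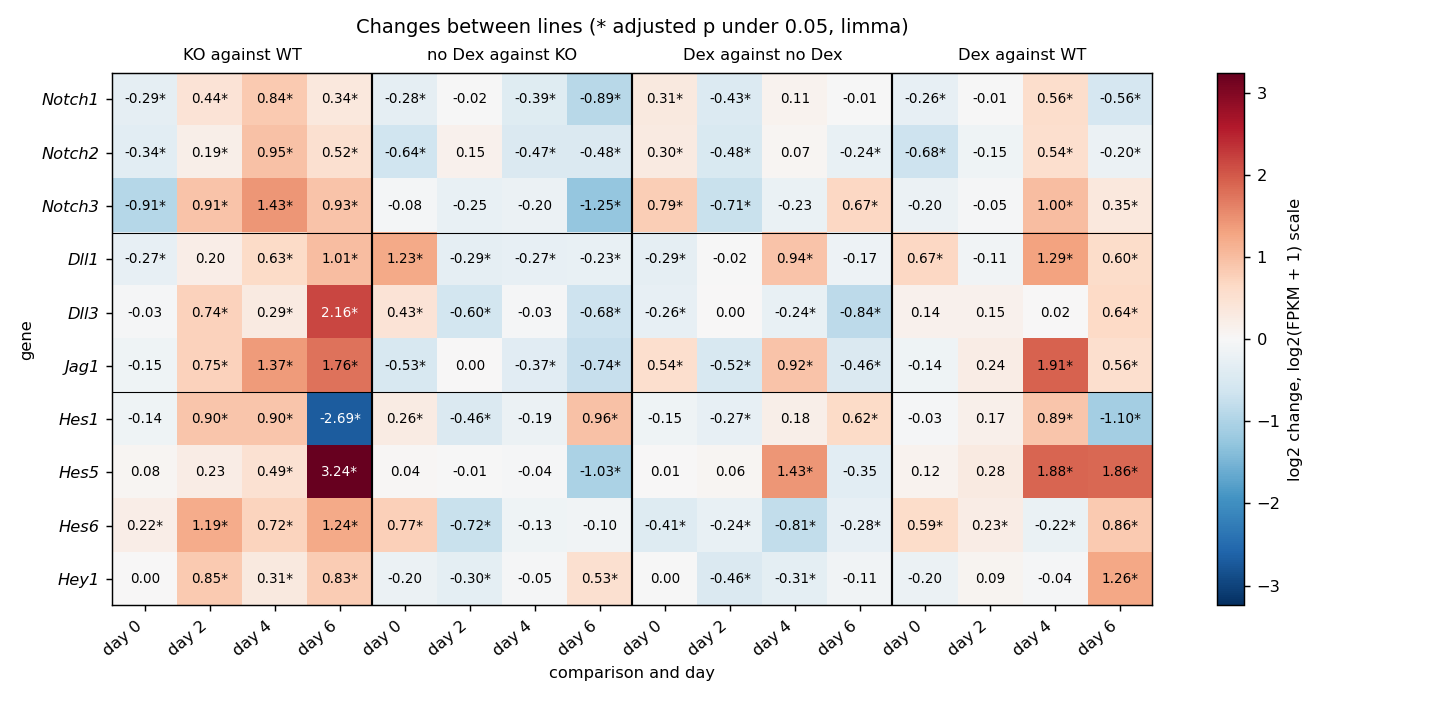
Log2 change of each gene (rows) in each comparison and day (columns) on the log2(FPKM + 1) scale. Colour gives the change, red higher and blue lower, and an asterisk marks a limma adjusted p under 0.05. At day 6 the KO against WT column runs from -2.69 for Hes1 to 3.24 for Hes5.

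Among the ligands, Dll1 (ENSMUSG00000014773, GRCm38 chr17:15367354-15376872, minus strand) is the Delta ligand that neuronal precursors present to their neighbours. In WT it was 0.59 and 0.70 FPKM at day 0, 4.42 and 4.96 at day 2, 3.88 and 4.15 at day 4, and 17.7 and 18.2 at day 6. In KO it was 0.35 and 0.37, then 6.19 and 4.96, 6.55 and 6.96, and 38.45 and 35.9 at the same days. On the log2 scale the rise from day 0 to day 2 was 1.79 ± 0.09 in WT and 2.27 ± 0.09 in KO. From day 4 to day 6 it was 1.92 ± 0.09 and 2.30 ± 0.09, so both rises were greater in KO. Whether the rises differed was not tested for these steps. From day 4 both KO libraries were above both WT libraries. The difference at day 6 was 1.01 ± 0.09 (SE) on the log2 scale, a ratio of means of 2.07 (limma adjusted p = 1.2e-08). Without Dex it was 2.40 and 1.99 FPKM at day 0, 4.13 and 4.57 at day 2, 4.76 and 6.15 at day 4, and 30.1 and 32.8 at day 6. With Dex the 4 days gave 1.64 and 1.59, 4.36 and 4.19, 11.3 and 11.3, and 28.6 and 27.0 FPKM. The fusion line stood above the KO line already as stem cells (1.23 ± 0.09, limma adjusted p = 2.23e-09), and Dex organoids stood above all others at day 4. That day 4 difference from no Dex was 0.94 ± 0.09 (limma adjusted p = 1.82e-07), while at day 6 it was -0.17 (adjusted p = 0.154). The call of -0.23 in no Dex against KO at day 6 (limma adjusted p = 0.0454) was lost under rescaling, the smaller pseudocount and no filter, with only the compared groups in the fit (adjusted p = 0.0644) or the replicate block (adjusted p = 0.0509), and without either KO library or the first no-Dex library (adjusted p = 0.226, 0.0601 and 0.254). At day 4 the same comparison lost its call of -0.27 under rescaling, the smaller pseudocount, no filter and with only the compared groups in the fit (limma adjusted p = 0.0755, 0.056, 0.0729 and 0.246). It was lost too without either KO library or the first no-Dex library, the last giving -0.12 (limma adjusted p = 0.472).

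Dll3 (ENSMUSG00000003436, chr7:28293553-28302238, minus strand) is a divergent Delta protein that stays inside the cell and dampens signalling in the cell that makes it. At day 6 it had the greatest difference between WT and KO of the 3 ligands, while at days 2 and 4 Jag1 had. WT went from 1.41 and 1.3 FPKM at day 0 to 8.19 and 7.72 at day 2 and 10.6 and 10.5 at day 4, and back to 2.67 and 3.15 at day 6. KO went from 1.31 and 1.31 to 14.7 and 13.3, 12.9 and 13.2, and 16.4 and 16.5 at the same days. WT thus lost Dll3 mRNA after day 4 (-1.56 ± 0.06 from day 4 to day 6, limma adjusted p = 5.55e-14) and KO gained it (0.31 ± 0.06, limma adjusted p = 0.000269). At day 6 KO was 5.65 times WT (2.16 ± 0.06, limma adjusted p = 3.98e-16). The fusion line had 1.91 and 2.35 FPKM at day 0 without Dex, then 8.96 and 8.80, 12.4 and 13.2, and 10.2 and 9.53. With Dex it had 1.56 and 1.64, then 8.87 and 8.95, 11.01 and 10.4, and 5.02 and 5.11 FPKM. Day 6 levels therefore ordered as KO, no Dex, Dex and WT with no overlap of libraries. Dex against no Dex was -0.84 ± 0.06 (limma adjusted p = 3.46e-09) and no Dex against KO was -0.68 ± 0.06 (limma adjusted p = 3.53e-08). The smaller Dex against no Dex call at day 4 (-0.24, limma adjusted p = 0.00605) was lost without the second library of either group (-0.19, adjusted p = 0.0709, and -0.20, adjusted p = 0.0651).

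Jag1 (ENSMUSG00000027276, chr2:137081456-137116644, minus strand) is a Serrate-type ligand that signals to cells carrying Notch receptors in many epithelia and in the inner ear and vessels. WT levels were low throughout, at 1.27 and 2.20 FPKM at day 0, 0.93 and 1.04 at day 2, 1.53 and 2.00 at day 4, and 4.27 and 4.47 at day 6. KO levels were 1.55 and 1.32, 2.19 and 2.51, 6.20 and 6.02, and 16.8 and 17.6. From day 2 both KO libraries lay above both WT libraries, by a ratio of 2.39 at day 2, 3.46 at day 4 and 3.93 at day 6 (log2 change of 1.76 ± 0.11 at day 6, limma adjusted p = 3.46e-11). No Dex gave 0.61 and 0.76, 2.52 and 2.20, 4.39 and 4.58, and 9.62 and 10.1 FPKM at the 4 days. Dex gave 1.48 and 1.42, 1.27 and 1.41, 9.51 and 9.19, and 6.87 and 6.92. Jag1 with Dex was therefore highest at day 4 and lower at day 6 (-0.39 ± 0.11, limma adjusted p = 0.00425), while in the other 3 cultures day 6 was highest. Against no Dex it was lower with Dex at day 2 (-0.52), higher at day 4 (0.92) and lower at day 6 (-0.46), with limma adjusted p of 0.000741, 1.9e-06 and 0.00215.

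The make-up of the ligand pool differed at day 6. Summed over Dll1, Dll3 and Jag1, WT had 24.6 and 25.9 FPKM and KO 71.6 and 69.95. Without Dex the sum was 49.95 and 52.5 and with Dex 40.5 and 39.0. Dll3 made up 10.8% and 12.2% of the sum in WT, 22.9% and 23.5% in KO, 20.5% and 18.2% without Dex, and 12.4% and 13.1% with Dex. The Dll3 share with Dex thus lay near that of WT at day 6, and the groups of KO and no Dex did not overlap with either. At day 4 the share was 66.1% and 63.0% in WT and 34.6% and 33.7% with Dex. It was then 50.3% and 50.4% in KO and 57.5% and 55.1% without Dex, so Dex was furthest from WT at day 4.

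Among the receptors, Notch1 (ENSMUSG00000026923, chr2:26457903-26516663, minus strand) is the main receptor of neural progenitors. Its ratio of highest to lowest group mean, 2.7, was the smallest of the 10 genes, with 3.87 to 11.47 FPKM over all libraries. WT had 6.18 and 6.76 FPKM at day 0, 4.62 and 4.31 at day 2, 4.21 and 4.12 at day 4, and 7.95 and 8.78 at day 6. KO had 4.94 and 5.31, 6.47 and 6.39, 7.76 and 8.80, and 11.47 and 10.3. Notch1 thus fell by day 2 in WT (-0.45 ± 0.07, limma adjusted p = 8.62e-06) and rose in KO (0.28 ± 0.07, limma adjusted p = 0.00125). KO was higher than WT by 0.84 ± 0.07 at day 4 (limma adjusted p = 2.04e-09) and by 0.34 ± 0.07 at day 6 (limma adjusted p = 0.00018). No Dex had 3.87 and 4.19, 6.36 and 6.29, 6.06 and 6.04, and 5.30 and 5.52 FPKM, and Dex had 5.13 and 5.35, 4.08 and 4.79, 6.74 and 6.53, and 5.28 and 5.45. At day 6 both fusion groups lay below both WT and KO. No Dex was lower than KO by a log2 change of -0.89 ± 0.07 (limma adjusted p = 1.9e-09), and the Dex and no-Dex libraries overlapped.

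Notch2 (ENSMUSG00000027878, chr3:98013527-98150361, plus strand), a paralogue with overlapping roles, had the lowest mean level of the 10 genes. WT had 2.87 and 2.69 FPKM at day 0, 2.13 and 2.19 at day 2, 2.94 and 2.93 at day 4, and 4.31 and 4.57 at day 6. KO had 1.79 and 2.21, 2.63 and 2.56, 6.54 and 6.62, and 6.79 and 6.80. The KO level was reached by day 4 and differed little after it (0.04 from day 4 to day 6, limma adjusted p = 0.571). At day 4 KO was 2.24 times WT (0.95 ± 0.06, limma adjusted p = 4.8e-11). The day 2 call of 0.19 was lost under rescaling (0.10, limma adjusted p = 0.156) and without the first library of either group (0.17 each, adjusted p = 0.0578 and 0.0588). No Dex had 0.84 and 1.00, 3.01 and 2.96, 4.49 and 4.43, and 4.78 and 4.40 FPKM, and Dex had 1.43 and 1.28, 1.82 and 1.89, 4.68 and 4.77, and 3.84 and 3.63. Both fusion groups lay near WT at day 6, and Dex was lower than no Dex (-0.24 ± 0.06, limma adjusted p = 0.00259) and lower than WT (-0.20, limma adjusted p = 0.00597). With only the compared groups in the fit both calls were lost (limma adjusted p = 0.0814 against no Dex and 0.0605 against WT). The call against WT was lost without the second library of either group (-0.17 each, limma adjusted p = 0.062 and 0.0584).

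Notch3 (ENSMUSG00000038146, chr17:32120820-32166852, minus strand) is best known from the mural cells of vessels and is also made by neural progenitors. It was the most abundant of the 3 receptors in every organoid group. WT had 6.62 and 7.91 FPKM at day 0, 7.88 and 8.11 at day 2, 9.96 and 10.2 at day 4, and 23.8 and 22.7 at day 6. KO had 3.48 and 3.27, 15.8 and 16.03, 29.4 and 28.4, and 46.2 and 44.0. KO stem cells were thus lower than WT stem cells (-0.91 ± 0.10, limma adjusted p = 3.6e-07) and KO organoids were higher at each later day, by up to 2.86 times at day 4 (1.43 ± 0.10, limma adjusted p = 2.58e-10). No Dex had 2.72 and 3.63, 12.6 and 14.0, 22.6 and 27.7, and 18.1 and 18.6 FPKM. Dex had 6.47 and 5.91, 8.41 and 7.06, 20.5 and 22.04, and 29.35 and 30.25. Without Dex the level fell after day 4 (-0.43 ± 0.10, limma adjusted p = 0.000846), and with Dex it rose (0.47 ± 0.10, limma adjusted p = 0.000359). Notch3 was therefore higher with Dex than without at day 6 (0.67 ± 0.10, limma adjusted p = 1.99e-05), the direction that KO had against WT. Markers of mural cells (3 of 6 tested) summed to 30.8 and 30.4 FPKM in WT at day 6, 21.4 and 20.3 in KO, 8.40 and 9.51 without Dex and 37.4 and 39.25 with Dex, with Rgs5, Cspg4 and Myh11 under 1 FPKM in all libraries. Acta2 and Tagln were both higher with Dex (1.70 and 2.25 on the log2 scale), and their part in the Notch3 level was not tested.

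Hes1 (ENSMUSG00000022528, chr16:30064384-30067796, plus strand) encodes the repressor through which Notch activity holds retinal and neural progenitors, and it is also expressed independently of Notch in stem cells and early neural tissue. WT had 32.6 and 32.1 FPKM at day 0, 14.0 and 15.2 at day 2, 25.3 and 28.7 at day 4, and 190.4 and 174 at day 6. KO had 27.2 and 31.3, 27.7 and 28.4, 50.8 and 51.6, and 27.6 and 27.3. Hes1 thus climbed in WT between days 4 and 6 (2.71 ± 0.08, limma adjusted p = 1.71e-16) and fell in KO over the same days (-0.88 ± 0.08, limma adjusted p = 4.16e-09). KO was higher than WT at days 2 and 4, by 0.90 ± 0.08 at each (limma adjusted p = 5.01e-09 and 3.83e-09). By day 6 the direction had turned, and WT was 6.64 times KO (-2.69 ± 0.08 for KO against WT, limma adjusted p = 1.93e-16). No Dex had 32.1 and 38.2, 19.96 and 20.25, 45.6 and 43.7, and 54.8 and 53.8 FPKM, and Dex had 29.6 and 33.7, 16.3 and 16.7, 50.95 and 50.4, and 83.7 and 84.7. The order at day 6 was therefore WT, Dex, no Dex and KO, with no overlap between neighbours. No Dex exceeded KO by 0.96 ± 0.08 (limma adjusted p = 3.05e-09), Dex exceeded no Dex by 0.62 ± 0.08 (limma adjusted p = 1.67e-06), and Dex stayed below WT (-1.10 ± 0.08, limma adjusted p = 2.13e-10). This order was the order of the summed retina markers given above, whose part in the Hes1 level was not tested.

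Hes5 (ENSMUSG00000048001, chr4:154960923-154962371, plus strand) is a direct Notch target in neural progenitors and is close to silent outside neural tissue. At day 0 the 8 libraries held 0.07 to 0.31 FPKM, a level that rests on few fragments, so no fold against day 0 is given. WT had 0.63 and 0.46 FPKM at day 2, 7.05 and 5.46 at day 4, and 14.4 and 14.65 at day 6. KO had 0.91 and 0.72, 8.21 and 10.2, and 144.4 and 147.1. WT and KO thus lay close until day 4 and apart at day 6, when KO was 10.03 times WT (3.24 ± 0.18, limma adjusted p = 4.27e-12). The day 4 call of 0.49 in KO against WT (limma adjusted p = 0.0214) was lost under rescaling (0.40, adjusted p = 0.0687), with the smaller pseudocount (0.55, adjusted p = 0.279) and without the second library of either group (0.34, adjusted p = 0.2, and 0.35, adjusted p = 0.182). No Dex had 0.98 and 0.64, 8.54 and 9.17, and 66.95 and 74.8 FPKM at days 2, 4 and 6. Dex had 1.45 and 0.44, 25.0 and 26.2, and 53.1 and 57.6. At day 4 Dex organoids were 2.89 times those without Dex (1.43 ± 0.18, limma adjusted p = 2.6e-06). At day 6 all Dex libraries were below all no-Dex libraries, but that difference missed the threshold (-0.35 ± 0.18, limma adjusted p = 0.125). No Dex stayed below KO at day 6 (-1.03 ± 0.18, limma adjusted p = 6.89e-05), a call that was lost with the smaller pseudocount (-1.04, adjusted p = 0.0518). Dex stayed above WT (1.86 ± 0.18, limma adjusted p = 2.46e-08).

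Hes1 and Hes5 carry out overlapping repressor functions, so their sum and their balance were compared. At day 6 their summed level was 204.8 and 188.5 FPKM in WT, 172 and 174.4 in KO, 121.7 and 128.6 without Dex, and 136.8 and 142.3 with Dex. Hes5 made up 7.04% and 7.77% of this sum in WT and 84.0% and 84.4% in KO. It made up 55.0% and 58.2% without Dex and 38.8% and 40.5% with Dex. The day 6 sum was thus lower in both KO libraries than in both WT libraries. Hes1 supplied most of it in WT and Hes5 in KO. At earlier days the sum was higher in KO, with 28.6 and 29.1 FPKM against 14.6 and 15.65 in WT at day 2. At day 4 it was 59.0 and 61.8 FPKM in KO and 32.3 and 34.2 in WT. At day 4 the Hes5 share was 21.8% and 15.98% in WT, 13.9% and 16.5% in KO, 15.8% and 17.4% without Dex, and 32.9% and 34.2% with Dex.

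**Figure D3:**
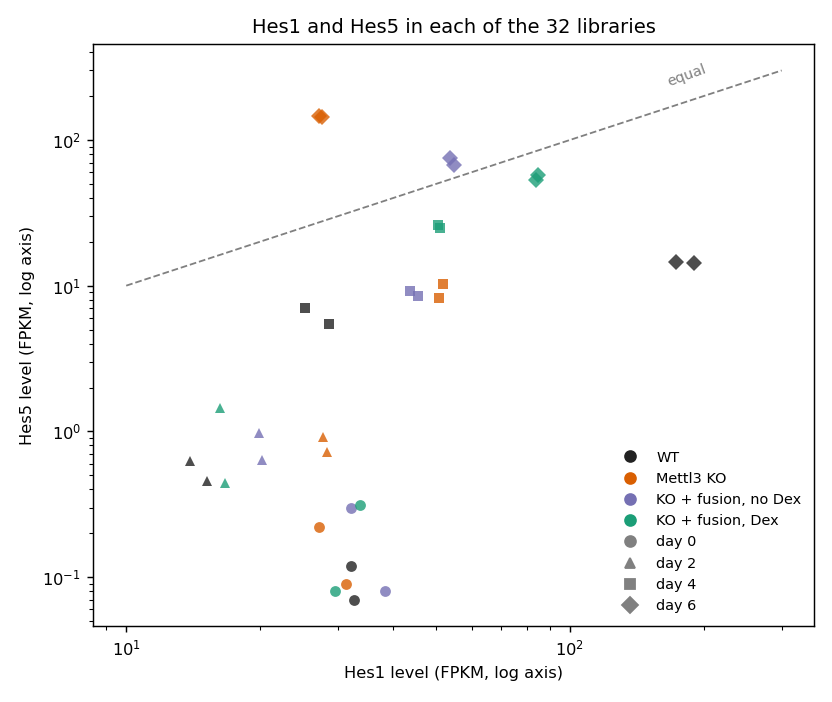
Hes5 level against Hes1 level in FPKM, both on log axes, for each of the 32 libraries, with colour for the culture, shape for the day, and a dashed line where the levels are equal. Only KO and no-Dex libraries of day 6 lie above the line, with KO at 27.6 and 27.3 FPKM of Hes1 and 144.4 and 147.1 of Hes5.

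Hes6 (ENSMUSG00000067071, chr1:91411483-91414038, minus strand), which opposes Hes1 and promotes differentiation, had its highest level at day 2 in each culture. In WT it was 13.7 and 15.7 FPKM at day 0, 75.3 and 72.8 at day 2, 36.4 and 37.95 at day 4, and 27.45 and 26.15 at day 6. KO had 17.1 and 17.5, 169.7 and 171.3, 60.3 and 63.1, and 64.4 and 64.7. KO was 2.3 times WT at day 2 (1.19 ± 0.05, limma adjusted p = 5.13e-13) and 2.41 times at day 6 (1.24 ± 0.05, limma adjusted p = 9.04e-14). No Dex had 29.4 and 31.25, 104.3 and 101.6, 56.6 and 56.0, and 58.6 and 61.5 FPKM, and Dex had 22.2 and 22.9, 86.7 and 87.5, 33.2 and 30.4, and 47.4 and 51.3. Dex was thus below no Dex at each day, most at day 4 (-0.81 ± 0.05, limma adjusted p = 5.94e-10), and at day 2 that call was lost under rescaling (-0.12, limma adjusted p = 0.063). The day 0 call in KO against WT (0.22) was lost without the first WT library (0.13, limma adjusted p = 0.0563).

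Hey1 (ENSMUSG00000040289, chr3:8663359-8667256, minus strand) encodes a related repressor induced by Notch in vessels, somites and neural progenitors. WT had 0.88 and 0.53 FPKM at day 0, 1.15 and 1.46 at day 2, 5.65 and 4.92 at day 4, and 4.00 and 3.82 at day 6. KO had 0.70 and 0.70, 3.18 and 3.11, 6.91 and 6.70, and 7.83 and 7.64. No Dex had 0.45 and 0.51, 2.14 and 2.59, 6.74 and 6.37, and 11.4 and 11.8, and Dex had 0.59 and 0.37, 1.45 and 1.44, 5.44 and 4.77, and 10.8 and 10.6. Hey1 was thus the member for which the fusion line ended above both WT and KO. Dex exceeded WT at day 6 by 1.26 ± 0.09 (limma adjusted p = 6.28e-10) and no Dex exceeded KO by 0.53 ± 0.09 (limma adjusted p = 8.28e-05). KO exceeded WT at day 6 by 0.83 ± 0.09 (limma adjusted p = 1.66e-07). Markers of paraxial mesoderm, a source of somites (4 of 9 tested, with Msgn1, Mesp1 and Meox1 under 1 FPKM in all libraries), summed to 15.2 and 16.2 FPKM in WT at day 6, 13.8 and 14.2 in KO, 88.7 and 88.0 without Dex and 41.7 and 40.1 with Dex. Rspo3 alone supplied most of the fusion line's sum, at 84.5 and 83.0 FPKM without Dex and 35.6 and 34.5 with Dex. The sum of the whole list was 288.2 to 529.7 FPKM in the day 0 stem cells, so it is not specific to paraxial mesoderm. The list did not move as a whole, since in no Dex against KO Rspo3 was higher and the other 3 tested genes were not called, with a median of 0.09. Its part in the Hey1 level was not tested. At day 4 the KO against WT call (0.31) was lost without the second WT library (0.23, limma adjusted p = 0.0906) and the Dex against no Dex call (-0.31) without the first no-Dex library or the second Dex library (-0.27, adjusted p = 0.0814, and -0.23, adjusted p = 0.13).

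Other genes of the pathway were read from lists of modifiers, nuclear partners and antagonists, beside the 30.9% higher and 34.2% lower of all tested genes in KO against WT at day 6. In that comparison 9 of 16 tested genes for receptor processing and ligand uptake (19 listed) were higher and 3 lower. The greatest changes were those of Lfng and Mfng, Fringe enzymes that add sugars to Notch and shift its response between Delta and Serrate ligands, and of Furin, which cuts the receptor precursor. Lfng was 15.8 and 20.2 FPKM in WT and 84.3 and 84.7 in KO (2.18 ± 0.14, limma adjusted p = 4.99e-11), Mfng rose by 1.66 and Furin by 0.80 on the log2 scale. Lfng was 43.4 and 42.9 FPKM without Dex and 33.9 and 36.4 with Dex, so the order of groups was that of Hes5. Of the 11 antagonists 8 were higher and 3 lower, led by Chac1 (1.40), Nrarp (1.29) and Dtx4 (0.78). Nrarp, itself a Notch target that destabilises the Notch complex, was 28.5 and 29.3 FPKM in WT and 69.7 and 74.5 in KO. Of the 18 genes of the nuclear complex 7 were higher and 6 lower, near the shares of all tested genes, with the coactivators Maml1 (0.97) and Maml3 (0.82) and the corepressor Spen (0.72) furthest from 0, while Rbpj was not called (-0.06, limma adjusted p = 0.137). Genes of the Groucho family, which includes corepressors that Hes proteins recruit, split, with 3 of 6 higher and 2 lower. Tle2 changed by 1.65, Tle5 by 0.88 and Tle4 by -0.81, and not every family member need act as such a corepressor.

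Further family members also differed. Hes3, a Hes gene of early neural progenitors, was 0.54 and 1.06 FPKM in WT at day 6 and 39.4 and 41.05 in KO (4.53 ± 0.11, limma adjusted p = 3.55e-17). It was 20.8 and 20.4 FPKM without Dex and 4.97 and 5.33 with Dex. Of the 6 tested genes of the other Hes and Hey family (8 listed) 2 were higher and 2 lower in KO, with Bhlhe41 (-0.999) and Hey2 (-0.39) next after Hes3. Dlk1, a ligand-like protein without the Notch-binding domain of Delta, went the other way, from 294.5 and 284 FPKM in WT to 1.77 and 1.62 in KO (-6.75 ± 0.12, limma adjusted p = 1.91e-19). It stayed at 1.75 and 1.63 FPKM without Dex and 3.59 and 3.36 with Dex. Among the 4 tested further ligands and receptors (6 listed) Dner (0.74) and Jag2 (0.46) were higher and Notch4 was not called (0.17, limma adjusted p = 0.581), and Dll4 and Dlk2 stayed under 1 FPKM in all libraries.

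With Dex against no Dex at day 6, 23.8% of all tested genes were higher and 19.0% lower. Of the 16 processing genes 5 were higher and 3 lower, near those shares, led by Furin (0.68), Rfng (0.68) and Mib2 (0.48). For the antagonists 5 were higher and 3 lower, with Chac1 (1.00), Dtx3 (0.53) and Numbl (0.50) first. In the nuclear complex 3 were higher and 9 lower, with Crebbp at -0.95 and Kdm5a at -0.56 among the lower. Hes3 was lower by a log2 change of -1.81 ± 0.11 (limma adjusted p = 2.22e-10). Lfng missed the threshold (-0.29, limma adjusted p = 0.107), as did Hes5.

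Markers of other cell states moved with the Notch genes. Of 9 tested proneural and neuronal precursor genes (12 listed, Atoh1 and Atoh7 under 1 FPKM in all libraries), which Hes proteins repress, 8 were higher and Btg2 was lower (-0.18) in KO against WT at day 6, with a median of 3.21. Neurog1 and Gadd45g were among the higher genes, by 3.90 and 3.43. The summed level of the list was 25.2 and 26.25 FPKM in WT, 176.3 and 179.1 in KO, 96.8 and 103.6 without Dex and 59.2 and 60.8 with Dex. Of 12 neuron genes 10 were higher and 0 lower, and their sum was 84.9 and 81.5 FPKM in WT, 438.1 and 436.9 in KO, 384.3 and 379.7 without Dex and 245.4 and 248.05 with Dex. The same sum was 337.9 to 378.5 FPKM in the day 0 stem cells, so it is not specific to neurons. Tubb3, a tubulin best known from neurons, was 29.5 and 28.9 FPKM in WT and 267.9 and 264.45 in KO (3.15 ± 0.03, limma adjusted p = 2.01e-23). With Dex against no Dex, 7 of the 9 proneural genes were lower and Neurog2 was higher (0.81), and 11 of the 12 neuron genes were lower, with medians of -1.05 and -0.81. All 6 retina genes were higher with Dex, with a median of 2.45. Neural progenitor genes split in KO against WT, with 5 of 9 higher and 2 lower, and summed to 858.3 and 842.7 FPKM in WT and 1114 and 1104 in KO. Of the 6 retina genes 5 were lower in KO and Tbx2 was higher (0.33), with a median of -4.22. Extraembryonic endoderm genes were lower in KO for 9 of 9, with sums of 80.6 and 81.3 FPKM in WT, 12.25 and 12.2 in KO, 9.01 and 9.05 without Dex and 12.6 and 13.1 with Dex, and Gata4 at 0.04 and 0.08 FPKM in KO. Of the 8 glucocorticoid response genes 3 were higher and 0 lower with Dex against no Dex at day 6. At day 0, 6 were higher and 0 lower, where 27.3% and 16.1% of all tested genes were. Their day 0 sums were 205.7 and 207.0 FPKM with Dex, 141.6 and 142.6 without Dex, and 248.1 and 237.9 in WT. At day 2, 2 were higher and 4 lower, and at day 4, 3 were higher and 2 lower. Whether Dex caused these changes was not tested. In KO against WT at day 6, endothelial genes (4 of 8 tested) were lower for 3 and higher for 1. They summed to 14.9 and 14.4 FPKM in WT and 2.64 and 2.34 in KO. Cdh5, Tie1, Emcn and Erg were under 1 FPKM in all libraries. The part of these cell types in the levels of the 10 genes was not tested.

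**Figure D4:**
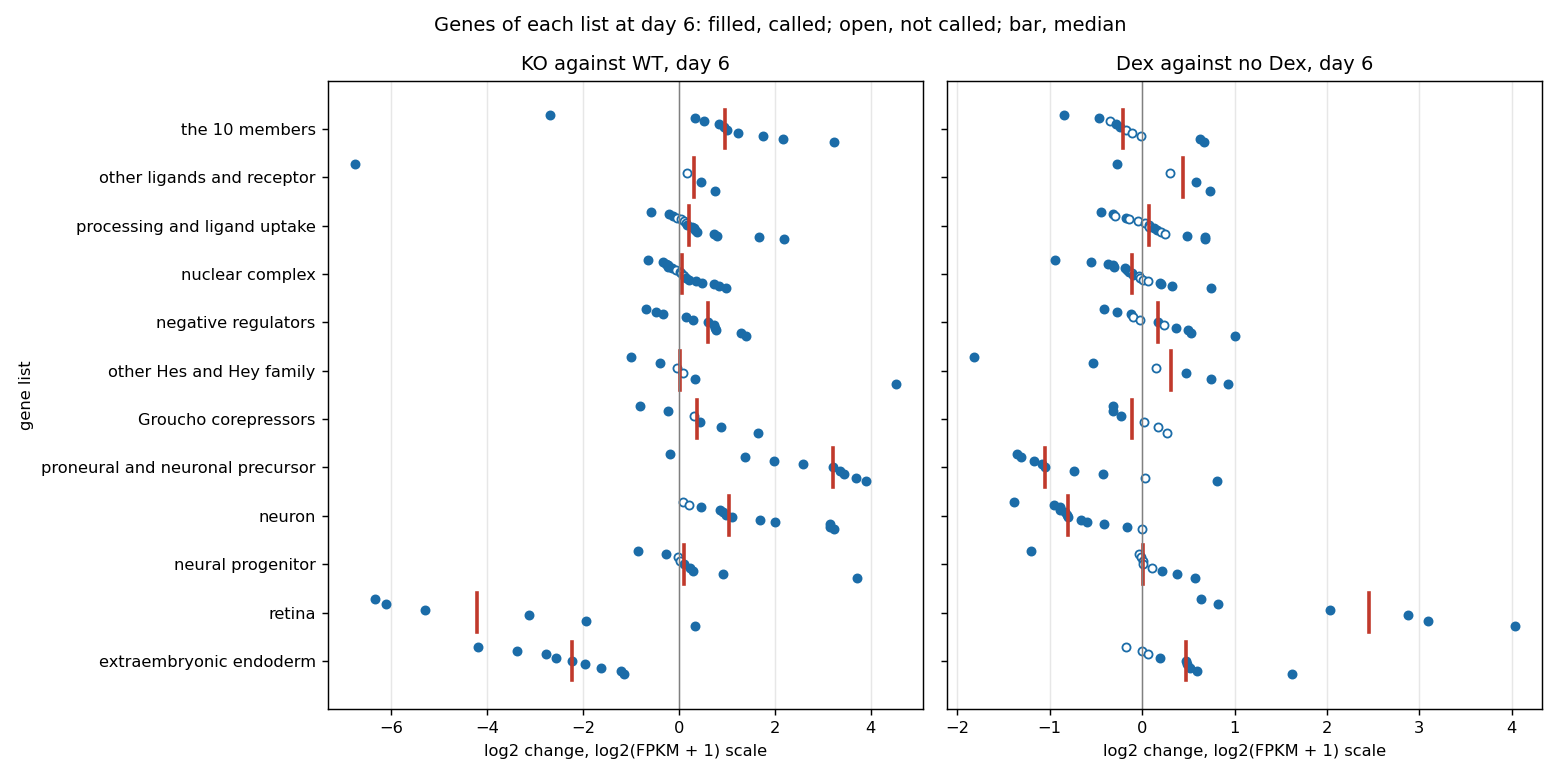
Log2 change on the log2(FPKM + 1) scale (x axes) of each tested gene of 12 lists (y axis) at day 6, in KO against WT on the left and Dex against no Dex on the right. The scales of the x axes differ. Filled points are genes with a limma adjusted p under 0.05, open points the others, and red bars list medians. The proneural median is 3.21 on the left and -1.05 on the right.

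The members were also compared by pattern over the 16 group means of log2(FPKM + 1), whose points share lines, days and library scale, so the correlations only describe these samples. Hes5 ran closest to Gpr153 (r = 0.9941), Pcdh18 (0.9932) and Ormdl3 (0.9901). Hes1 had looser neighbours, Pcdhga7 (0.9207), Angpt1 (0.9064) and Unc50 (0.8949). Dll1 ran with Ip6k2 (0.9775), Zswim8 (0.9707) and Chkb (0.9674), and Dll3 with Pde4b (0.9617), Sp6 (0.9593) and Snph (0.9524). Jag1 ran with Sh3rf1 (0.9601), Cdr2l (0.9589) and Rnf170 (0.9574). The receptor Notch1 had Tgif2 (0.8871), Ddhd1 (0.8868) and Dgkq (0.8838), Notch2 had Setd5 (0.9786), Kif3b (0.9784) and Sec61a2 (0.9734), and Notch3 had Rap2b (0.9762), Trim3 (0.9686) and Tmem43 (0.9683). Hes6 had Ypel3 (0.9340), Ramp2 (0.9256) and Klf7 (0.9101), and Hey1 had Tmem147os (0.9841), Kcnmb4 (0.9832) and R74862 (0.9806). Within the family, Hes5 correlated with Jag1 at 0.94, with Dll1 at 0.92 and with Hey1 at 0.90, and with Hes1 at 0.53. With the retina gene Lhx2 the correlation was 0.84 for Hes1, 0.75 for Hes5 and 0.71 for Dll1, and with Six3 it was 0.72, 0.63 and 0.53. Hes1 correlated with Hes6 at -0.32, and Hes5 correlated with Lfng at 0.98.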

How the data were processed

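Polyadenylated RNA of 32 libraries was sequenced as paired reads. The authors' deposited table gives FPKM per gene and library, made with STAR and Cuffdiff on mm10 per the submitters' processing notes, whose versions and strand setting are not given in the sources used here. Of the 55492 genes in it, 21161 were at 0 in every library. Genes with at least 1 FPKM in at least 2 libraries (16276) were tested as log2(FPKM + 1) with limma 3.58.1 in R 4.3.3, in a single fit of 16 group means with 16 residual degrees of freedom and Benjamini-Hochberg adjustment over all genes of each comparison, called at 0.05. This scale understates the change of low genes. The labels give a single batch date, and duplicates went through separate rounds of preparation and sequencing; whether a replicate number marks the same round in all groups is not stated, so it entered only as the replicate block among the alternatives. Values of a group are those of its 2 libraries.

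The members, the gene lists and the tests were chosen with earlier results of these data known. Named genes were, per list, the 3 with the greatest called change in the comparison described, plus the members, and genes with a direct role in the pathway that were not called. Some genes that this rule would name are not reported here. Nearest genes were the 3 with the highest correlation to a member. Btg2, Tbx2 and Neurog2 were named after their values were seen.

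Depth was estimated from the steps of low values, since FPKM hold no counts: 89.7% to 92.5% of low values in 10615 single-transcript genes came within 0.2 of whole fragments, where 40% would by chance. Not all values were whole, and no count test was run. Data were simulated for 16276 genes with independent normal errors, and only 200 genes were changed. The KO against WT comparison of day 6 found 76.9% of genes changed by 0.5 and 92.7% of those changed by 1 (log2), with 5.4% of calls false. In the measured data that comparison called 5029 genes higher and 5562 lower, so these rates need not hold there.

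Gene positions are those of GENCODE M21 (GRCm38), matched by Ensembl ID for 99.5% of genes. Genes overlapping Notch1 (0610009E02Rik, Gm13568), Notch2 (Gm42819, Gm42820), Notch3 (Gm17276), Dll1 (A930024N18Rik) and Hes5 (Gm20421) could share reads with them. Alternatives were a pseudocount of 0.1, no filter, a mean of at least 5 FPKM, median-of-ratios rescaling, a minimum change of 1, the replicate block, only the compared groups in the fit, and leaving out each library.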

Additional observations from a re-analysis of the deposited data

Results flagged for a closer look

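The difference between KO and WT changed from day 0 to day 6 for all 10 genes, by a test of the difference itself (limma interaction on the log2(FPKM + 1) scale). Over all tested genes it changed upwards for 31.1% and downwards for 25.8%. The change was 0.63 for Notch1, 0.86 for Notch2 and 1.84 for Notch3. Among the ligands it was 1.28 for Dll1, 2.19 for Dll3 and 1.91 for Jag1. It was -2.54 for Hes1 and 3.17 for Hes5, and 1.01 for Hes6 and 0.83 for Hey1. Adjusted p lay between 1.93e-13 (Dll3) and 2.3e-05 (Hey1) by limma. The fit estimated a single spread per gene for all groups. Squared differences of the WT duplicates at day 0, which enter each of these tests, were 13 times those from counting noise, against a median factor of 1.89 over groups.

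Between Dex and no Dex the difference changed from day 0 to day 6 for 5 of the 10 genes by the same test. Over all tested genes it changed upwards for 22.7% and downwards for 25.9%, so the count of members was near that of all genes. The change was -0.32 for Notch1, -0.53 for Notch2, -0.58 for Dll3, -1.002 for Jag1 and 0.77 for Hes1. Limma adjusted p ran from 7.31e-06 (Hes1) to 0.00901 (Notch1). The day 0 samples of this comparison are labelled as treated, while the protocol names treatment only from 2 days on.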

How the results depend on the processing

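No alternative reversed a called change of a member. Of 160 called changes, 159 kept their call under the replicate block, 153 under rescaling, 152 with a pseudocount of 0.1, 158 without the filter and 139 with only the compared groups in the fit, and the 110 that a mean of at least 5 FPKM left in all kept it. Leaving out single libraries kept the call in 663 cases and lost it in 37. Deviations of same-numbered libraries correlated between -0.09 and 0.13 over 120 pairs of groups. These values cannot show whether same-numbered libraries shared a round of preparation. The replicate block lost Dll1 in no Dex against KO at day 6 (-0.23, limma adjusted p = 0.0509).

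The number of members called moved in these comparisons. For no Dex with KO at day 4, a pseudocount of 0.1 gave 2. Genes with a mean of at least 5 FPKM, which are fewer, gave 5 for KO with WT and 4 for Dex with no Dex, both at day 2, and 3 for the change of the latter difference with day. For Dex with WT at day 2, rescaling gave 2. A minimum change of 1 gave, over days 0, 2, 4 and 6, counts of 0, 1, 2 and 6 (KO with WT), 1, 0, 0 and 2 (no Dex with KO), 0, 0, 1 and 0 (Dex with no Dex) and 0, 0, 4 and 3 (Dex with WT). It also gave 5 for WT between days 0 and 6 and 1 for the interaction of Dex and day. Fits of the compared groups alone gave 2 for KO with WT and 4 for Dex with no Dex, both at day 0, and 3 for no Dex with KO at day 2. Leaving out single libraries gave 3 to 5 for no Dex with KO at day 2, 2 to 4 at day 4, and 1 to 2 for Dex with WT at day 2. Where no smaller gene or sample number accounts for a move, the cause was not tested. With 2 libraries a group, leaving out 1 assumes that the lone library varies like the other groups.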
